A study of Mus musculus with 8 samples.

Results

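The gasdermins described here are Gsdmc, Gsdmc2, Gsdmc3 and Gsdmc4, which lie side by side on mouse chromosome 15, and Gsdmd on the same chromosome. These 5 genes were picked by gene name from a table of 29037 genes, and they were picked because earlier results of these data had shown them to differ between the groups. Their difference between the groups is therefore given as a description, with no test. The libraries came from intestinal crypt cells of 4 mice with a conditional knockout of Tdp-43, labelled cKO, and of 4 littermates labelled WT, named Ctrl here, and every mouse was 8 weeks old. Crypts are the glands at the base of the gut epithelium, where its stem cells sit, and they were detached with EDTA before total RNA was sequenced. The labels do not name the Cre driver, the cells in which it acts or the floxed part of Tardbp, the gene that encodes the RNA-binding protein Tdp-43. Nothing beyond the labels tied a library number to a litter or a preparation, so errors measure the spread between these 8 libraries.

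Gasdermins are proteins that stay inactive in the cytosol until a protease cuts the linker in the middle of the protein, after which the amino-terminal part inserts into membranes as a pore. Gsdmd is the gasdermin cut by the inflammatory caspases downstream of inflammasomes, and its pores release cytokines of the IL-1 family and can kill the cell by pyroptosis. The Gsdmc genes are expressed in the mouse intestinal epithelium, where the type 2 cytokines IL-4 and IL-13 are known to raise their transcripts through Stat6 during worm infection. Mice carry several Gsdmc copies where humans carry a single GSDMC.

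The 4 Gsdmc genes are annotated in GENCODE M21 on GRCm38 on the minus strand, and the deposited table gave identical coordinates for all 5 members. Gsdmc (ENSMUSG00000079025) lies at chr15:63775968-63808759, Gsdmc2 (ENSMUSG00000056293) at chr15:63824346-63845177, Gsdmc3 (ENSMUSG00000055827) at chr15:63857724-63878558 and Gsdmc4 (ENSMUSG00000055748) at chr15:63891264-63912297. Together they span 136.3 kb. Gsdmd (ENSMUSG00000022575) lies 11.95 Mb away at chr15:75862327-75867408 on the plus strand. The cluster also holds annotated pseudogene copies on the plus strand. Gsdmcl1, Gsdmcl2 and Gsdmcl-ps each stand head to head with a coding gene, and the facing starts are 2131 bases apart for Gsdmc2 and Gsdmcl1, 2148 bases for Gsdmc3 and Gsdmcl2 and 2150 bases for Gsdmc4 and Gsdmcl-ps. None of the annotated spans overlap.

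The coding sequences show how alike these copies are. The first 120 coding bases of the 4 genes, from the GENCODE M21 transcripts, are printed with capitals at the 15 positions where at least 1 of the 4 genes differs.
Gsdmc: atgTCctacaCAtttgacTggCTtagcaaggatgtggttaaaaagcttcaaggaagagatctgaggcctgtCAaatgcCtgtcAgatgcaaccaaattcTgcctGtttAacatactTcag
Gsdmc2: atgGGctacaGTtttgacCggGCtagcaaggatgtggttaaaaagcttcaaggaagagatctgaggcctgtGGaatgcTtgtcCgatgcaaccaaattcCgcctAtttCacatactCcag
Gsdmc3: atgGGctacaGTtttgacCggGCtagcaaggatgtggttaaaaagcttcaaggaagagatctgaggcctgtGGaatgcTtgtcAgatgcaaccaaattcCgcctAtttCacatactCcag
Gsdmc4: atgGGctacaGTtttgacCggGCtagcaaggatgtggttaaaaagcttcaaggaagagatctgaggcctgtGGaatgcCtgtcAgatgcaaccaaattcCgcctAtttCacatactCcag

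Gsdmc stands apart at this end of the coding sequence, and Gsdmc2, Gsdmc3 and Gsdmc4 are nearly letter for letter the same. The stretch of 120 aligned columns in which these 3 genes differ most holds 27 of the 125 differing columns among 1446, and it shows where a read can be assigned to 1 of them. Capitals mark the differing columns, and the stretch covers coding bases 759 to 878 of Gsdmc2 and Gsdmc3 and 765 to 884 of Gsdmc4.
Gsdmc2: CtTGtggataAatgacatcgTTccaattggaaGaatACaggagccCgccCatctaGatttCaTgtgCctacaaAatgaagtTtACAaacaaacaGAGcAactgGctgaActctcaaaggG
Gsdmc3: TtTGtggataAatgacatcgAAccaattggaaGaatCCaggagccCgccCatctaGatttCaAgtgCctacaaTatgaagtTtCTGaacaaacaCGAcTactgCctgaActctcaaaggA
Gsdmc4: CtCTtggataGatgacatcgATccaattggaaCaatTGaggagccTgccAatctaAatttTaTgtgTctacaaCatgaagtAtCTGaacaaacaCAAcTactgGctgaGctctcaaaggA

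Over whole coding sequences, Gsdmc2 and Gsdmc3 were identical at 97.1% of 1440 aligned bases, Gsdmc2 and Gsdmc4 at 93.5% and Gsdmc3 and Gsdmc4 at 93.4%. Gsdmc was 86.0% to 87.1% identical to the other 3, and Gsdmd 46.4% to 47.2% identical to the 4 Gsdmc genes. Of all 100-base windows of their transcripts, 28.6% in Gsdmc2, 28.4% in Gsdmc3, 20.2% in Gsdmc4 and 7.03% in Gsdmc occurred letter for letter in a transcript of another gene, and none of the 2565 windows of Gsdmd did. With 150-base windows the shares were 14.9%, 18.0%, 8.83% and 2.95%. The read length and the handling of reads with several matches are given in no source used here, so the split of reads among the copies is uncertain and the sum of the 4 Gsdmc genes is given beside each of them.

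A promoter sequence was matched in the RefSeq table for 1 of the 5 members, Gsdmc3. The 250 bases before its start, chr15:63878559-63878808 on the minus strand of GRCm38.p6, are shown because they lie within the stretch that separates it from the facing copy Gsdmcl2. Capitals mark a run that resembles a TATA box.
Gsdmc3 promoter: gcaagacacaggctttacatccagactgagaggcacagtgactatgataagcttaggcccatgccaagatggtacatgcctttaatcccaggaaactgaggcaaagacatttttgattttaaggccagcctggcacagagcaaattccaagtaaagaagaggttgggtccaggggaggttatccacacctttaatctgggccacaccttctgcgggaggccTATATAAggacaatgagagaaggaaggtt

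The run TATATAA begins 29 bases before the start. It was picked after the sequence was read, and 3.46% of 27025 promoters of the table hold these letters. The shares given here count either strand and any position, in a stretch that also runs past the start. The letters TATAAA, held by 14.2% of the promoters, the Stat6 motif (TTC and GAA separated by any 4 bases), held by 6.99%, and the motif of other Stat factors (TTC and GAA separated by any 3 bases), held by 8.47%, were not in this window.

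The values are gene counts that the authors divided by 1 factor per library, and they are called normalized counts here. The recovered reads on genes ranged from 21517596 to 29992110 per library. Differences are given on the scale of log2(normalized count + 1) as cKO minus Ctrl, called log2 fold changes. The 16536 genes with a mean of at least 10, the 5 members among them, were tested with limma, but no test result is given for the members. A gene was called at a Benjamini-Hochberg adjusted p under 0.05. By this test 935 genes (5.65%) were higher and 1004 (6.07%) lower in cKO, a share of 48.2% higher among those called. Scaling by library totals instead of by the deposited factors gave 1327 higher and 739 lower, a share of 64.2%. The library labelled cKO replicate 2 stood apart, and without it 1347 genes were called higher and 1385 lower. The labels were checked on Tardbp. Its normalized counts were 6319, 6342, 5103 and 4900.2 in Ctrl and 11990.2, 10794, 11875 and 13269 in the libraries labelled cKO. The log2 fold change was 1.09 ± 0.11 (SE, adjusted p 0.00209 by limma). This is the reverse of what a loss of the whole transcript would give. A count over the whole gene cannot show whether part of it was deleted, so every direction below compares libraries as they are labelled.

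The labels name the intestine without a region. The colon gene Hoxb13 lay between 2409 and 6374 normalized counts in all 8 libraries, and Car1 between 19887 and 83709.7. Of the other colon genes, Car4 lay between 4729 and 19124, Aqp8 between 3770 and 15647 and Aqp4 between 5274 and 24860. Slc26a3 lay between 5724 and 26833 and Atp12a between 2371 and 8323. Lower levels were found for Best2 (397 to 3562), Scnn1b (91.9 to 1578) and Scnn1g (12.3 to 770). Of the small-intestinal genes, Fabp1 and Lct did not pass 8.01 in any library, and Fgf15 did not pass 3.01. Others were present. Fabp2, a fatty acid binding protein of enterocytes, lay between 5299.8 and 7418 in Ctrl and between 1693 and 4182 in cKO. The ileal bile acid binding protein Fabp6 lay between 92.5 and 284 in Ctrl and between 22.8 and 55.0 in cKO, and the ileal bile acid transporter Slc10a2 between 76.5 and 961 over all libraries. Gata6, a transcription factor, lay between 1462 and 1880.4 over all libraries. Listed with it for the proximal small intestine, Gata4 lay between 10.5 and 47.5, Rbp2 between 139 and 746, and Onecut2 did not pass 24.6. The enterocyte gene Sis did not pass 33.2 and Apoa1 did not pass 28.3, while Slc5a1 lay between 3451 and 5969. Genes listed for both regions were thus measured, and no region is assigned here. The stem cell marker Olfm4 lay between 3.79 and 43.8, while Lgr5 lay between 260.5 and 455 in Ctrl and between 30.2 and 281 in cKO. The 8 general epithelial markers, among them Epcam and Krt8, summed to between 376100 and 468200 in Ctrl and between 361300 and 422200 in cKO, with Krt18 called higher and Cdx1 called lower. The call of Cdx1 was held whichever library was left out, and that of Krt18 only without cKO replicate 3.

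Transcripts of the Gsdmc family were lower in every cKO library than in every Ctrl library. The sum of the 4 genes was 151880, 93952, 227784 and 163995 normalized counts in Ctrl replicates 1 to 4 and 23064, 4276, 43289 and 50944 in cKO replicates 1 to 4. The lowest Ctrl library held 1.84 times the sum of the highest cKO library, and the means were 159403 ± 54886 and 30393 ± 21012 (SD, n = 4 each), 5.24-fold lower in cKO. The log2 fold change was -2.81 ± 0.86 (SE from the pooled spread within the groups). Without cKO replicate 2 it was -2.04, the only left-out library that moved it by more than 1.5-fold. In RNA from a whole crypt fraction, fewer cells that carry a transcript and less of it per cell cannot be told apart.

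**Figure D1:**
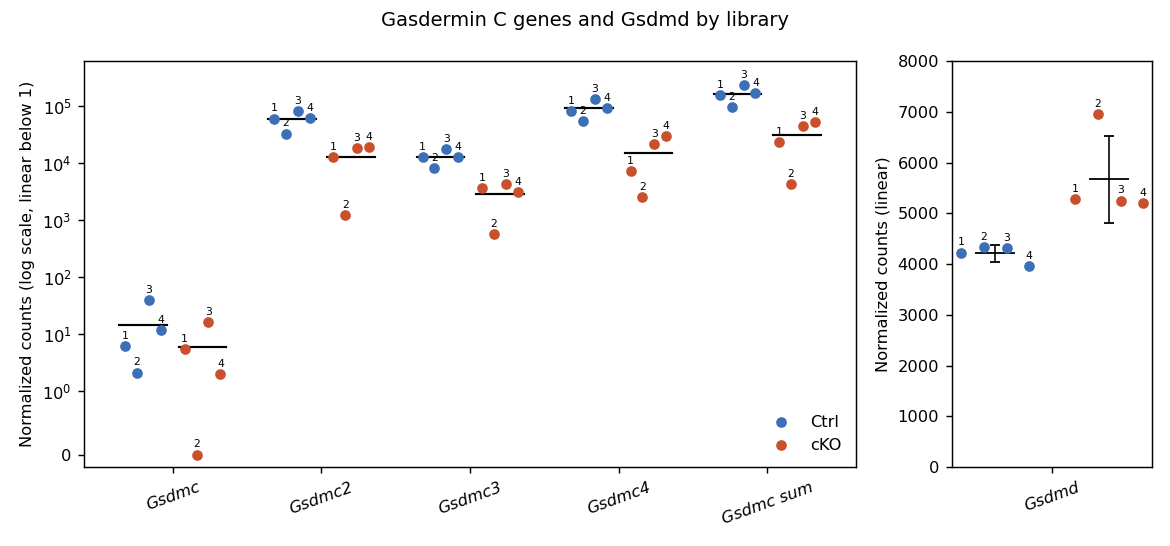
Normalized counts of the 4 Gsdmc genes and their sum on a log axis that is linear below 1 (left) and of Gsdmd on a linear axis (right), with 1 point per library marked by its replicate number, Ctrl in blue and cKO in red. Lines stand for group means and the bars of the Gsdmd panel for the SD (n = 4 each). The groups do not overlap for Gsdmc2, Gsdmc3, Gsdmc4, the sum or Gsdmd, and they overlap for Gsdmc.

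The family took a visible share of the whole library. It made up 0.580%, 0.365%, 0.820% and 0.615% of all normalized counts in Ctrl and 0.0938%, 0.0167%, 0.171% and 0.204% in cKO. Within Ctrl the sum varied 2.42-fold and within cKO 11.9-fold, with cKO replicate 2 lowest. Ctrl replicate 2 was the lowest and Ctrl replicate 3 the highest of their group for each of the 4 genes.

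Gsdmc4 was the most abundant copy. Its normalized counts were 80329, 53621, 131490 and 90979 in Ctrl and 7101, 2509.8, 20923 and 29096 in cKO. The groups did not overlap, and the means were 89104 ± 32332 and 14907.5 ± 12277 (SD, n = 4 each). The log2 fold change was -3.05 ± 0.85 (SE), and -2.38 without cKO replicate 2. Among the 4 genes this was the largest difference in the cKO direction, although the errors of the 3 abundant copies overlap.

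Gsdmc2 had 58935, 32221, 78746 and 60634 normalized counts in Ctrl and 12334, 1203, 18089.9 and 18842 in cKO. Again no cKO library reached the lowest Ctrl library, and cKO replicate 2 lay far under the other cKO libraries. The means were 57634 ± 19168 and 12617 ± 8146 (SD, n = 4 each), with a log2 fold change of -2.70 ± 0.98 (SE), or -1.77 without cKO replicate 2.

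Gsdmc3, the near twin of Gsdmc2 in sequence, was the least abundant of the 3 expressed copies. It had 12611, 8108, 17509.5 and 12371 normalized counts in Ctrl and 3623, 563, 4259.9 and 3004 in cKO. The groups were again separate, at 12649.8 ± 3844 and 2862 ± 1617 (SD, n = 4 each). The log2 fold change was -2.43 ± 0.71 (SE), or -1.76 without cKO replicate 2. Lower levels in all 4 cKO libraries than in all 4 Ctrl libraries were found in 10.3% of the 16536 tested genes. Gsdmc2, Gsdmc3 and Gsdmc4 were chosen for that difference, so nothing is read from their share.

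Gsdmc itself was hardly detected. Its normalized counts were 6.08, 2.10, 38.8 and 11.6 in Ctrl and 5.48, 0, 16.1 and 1.96 in cKO, from 61 reads in all 4 Ctrl libraries and 24 in all 4 cKO libraries. The groups overlapped, and replicate 3 held most of the reads in both. Its log2 fold change of -1.27 ± 1.16 (SE) was close to its own error, and it was -0.57 without cKO replicate 2. All 5 members passed the filter on a mean of at least 10, Gsdmc only just, and a fold change of such low counts depends on the added 1.

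Per kilobase of transcript, the scale on which genes can be compared, Gsdmc4 stood at 42695 ± 15492 normalized counts in Ctrl and ranked 18 among protein-coding genes. In cKO it stood at 7143 ± 5882 and ranked 132. Gsdmc2 stood at 24896 ± 8280 and rank 32 in Ctrl, and at 5450.3 ± 3519 and rank 184 in cKO. Gsdmc3 went from 5434 ± 1651 per kilobase at rank 189 to 1229.5 ± 694 at rank 1078 (SD, n = 4 for each group). Gsdmc, at 6.09 ± 6.90 and 2.44 ± 2.98, ranked 12433 and 13736. The spreads of Gsdmc4 and Gsdmc2 in Ctrl overlapped at 1 SD, while within every Ctrl library Gsdmc4 was the higher.

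**Figure D2:**
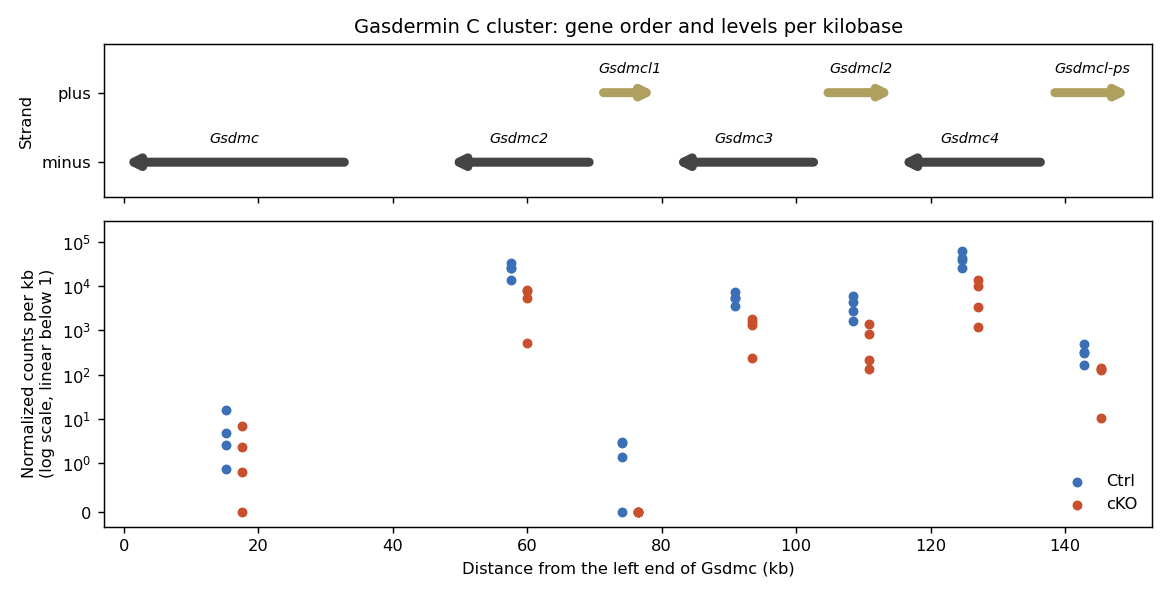
The upper panel draws the Gsdmc cluster to scale as distance from the left end of Gsdmc in kb, with arrows for the direction of transcription, coding genes in dark grey and pseudogene copies in tan. The lower panel gives normalized counts per kb for each library at the middle of each gene on a log axis that is linear below 1, and it shows high levels for Gsdmc2, Gsdmc3, Gsdmc4 and Gsdmcl2 beside low levels for Gsdmc and Gsdmcl1.

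The makeup of the family was steady in Ctrl and uneven in cKO. Gsdmc4 made up 55.5% to 60.3% of the per-kilobase level of the 4 genes in Ctrl. In cKO it made up 33.1%, 61.2%, 51.0% and 59.7% in replicates 1 to 4, so that cKO replicate 1 alone had more Gsdmc2 than Gsdmc4. The ratio of Gsdmc4 to Gsdmc2 per kilobase ran from 1.51 to 1.85 in Ctrl, and it was 0.639, 2.31, 1.28 and 1.71 in cKO. Gsdmc3 made up 7.08% to 8.08% in Ctrl and 5.52% to 15.1% in cKO. Reads that fit several copies can shift these shares.

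**Figure D3:**
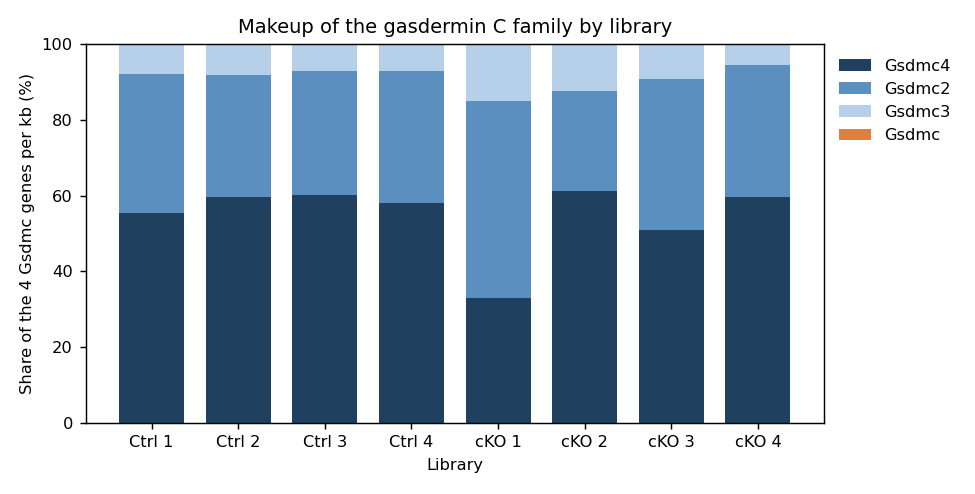
Stacked bars give the share of each of the 4 Gsdmc genes in their summed level per kb (percent) for each of the 8 libraries. Gsdmc4 takes 55.5% to 60.3% in Ctrl and 33.1% in cKO replicate 1, and Gsdmc is too low to be seen.

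The pseudogene copies of the cluster were measured as well. Gsdmcl2, which faces Gsdmc3, had 8643, 5135, 18765 and 13545 normalized counts in Ctrl and 670.03, 420.3, 2633 and 4449 in cKO. The groups did not overlap, and limma gave a log2 fold change of -2.93 ± 0.79 (SE) with an adjusted p of 0.0526, which missed the threshold, and 0.0368 without cKO replicate 4. Gsdmcl2 passed with a mean of at least 50 (0.0414), DESeq2 (0.00955) and limma-voom (0.0475), and edgeR gave 0.0806. It missed with no filter on low values (0.1345), TMM scaling (0.0540) and library totals (0.0551), and reached 0.139 by limma when 1 library was left out. Gsdmcl-ps, which faces Gsdmc4, had 745.7 ± 314 in Ctrl and 233 ± 140.02 in cKO (SD, n = 4 each), and limma gave an adjusted p of 0.149, or 0.0430 without cKO replicate 2. Gsdmcl1, which faces Gsdmc2, had 9 reads over the Ctrl libraries and none over the cKO libraries and was not tested. With these copies added, the log2 fold change of the family sum was again -2.81.

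Within the groups the abundant copies varied together. After the group means were subtracted from the log2 values of the 8 libraries, Pearson's r was 0.975 between Gsdmc2 and Gsdmc3, 0.914 between Gsdmc2 and Gsdmc4 and 0.827 between Gsdmc3 and Gsdmc4. Over these 8 libraries the pseudogene copies lay closest to different coding genes. Gsdmcl2 lay closer to Gsdmc4 (r = 0.964) than to Gsdmc3 (r = 0.689), which it faces, and Gsdmcl-ps closer to Gsdmc2 (r = 0.991) and Gsdmc3 (r = 0.990) than to Gsdmc4 (r = 0.870). These values describe 8 points that share library and depth. The coding genes are also near-identical in sequence, while Gsdmcl2 and Gsdmcl-ps shared no exact 50-base window with them. No test was made of these values, and they were not taken again without cKO replicate 2.

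Gsdmd differed in the other direction and by far less. Its normalized counts were 4227, 4337, 4317 and 3967 in Ctrl and 5279, 6958, 5249.9 and 5197 in cKO. All 4 cKO libraries lay above all 4 Ctrl libraries, 3 of them close together and cKO replicate 2 well above, as 9.54% of the tested genes did. The means were 4212 ± 170.3 and 5671 ± 859 (SD, n = 4 each), 1.35-fold higher in cKO. The log2 fold change was 0.42 ± 0.11 (SE), or 0.32 without cKO replicate 2. Per kilobase Gsdmd stood at 1772 ± 71.6 and rank 750 among protein-coding genes in Ctrl and at 2386 ± 361 and rank 501 in cKO (SD, n = 4 each), so that by its mean it was below Gsdmc3 in Ctrl and above it in cKO.

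Genes listed as markers of neutrophils, white blood cells that carry Gsdmd, moved with the groups. Of the 8 neutrophil markers tested, 6 were called higher and none lower, with a median log2 fold change of 3.18 beside -0.00596 over all tested genes. Their sum ran from 655 to 1523 normalized counts in Ctrl and from 5518 to 17930 in cKO, mostly Ly6g at 993 ± 366 and 9083 ± 6257 (SD, n = 4 each). Among the cKO libraries Ly6g was highest in replicate 2, at 17824, and lowest in replicate 4, at 3991. S100a8, S100a9, Retnlg, Csf3r, Cxcr2, Il1r2 and Mmp9 stood the other way round, lowest of cKO in replicate 2 and highest in replicate 4, so the sum follows Ly6g and not these 7 genes. In Ctrl replicates 1, 2 and 3 Ly6g stood at 1232, 642 and 720, while S100a8 stood at 0, 2.10 and 0.947. Neither Ly6g nor the sum is read here as a count of neutrophils. S100a8 and S100a9 stood at 30.2 and 24.4 in cKO replicate 2, the library with the most Gsdmd, and at 519 and 600.6 in cKO replicate 4. Ngp did not pass 4.88 in any library. When 1 library was left out, the count of neutrophil markers called higher was 1 for Ctrl 1, Ctrl 2, cKO 1 and cKO 4, 2 for Ctrl 3 and cKO 3, 5 for Ctrl 4 and 8 for cKO 2, and edgeR called 3 of them. Their part in the level of Gsdmd was not tested.

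The remaining gasdermins were at low levels. Gsdma had 11.1 ± 1.41 normalized counts in Ctrl and 33.4 ± 16.3 in cKO (SD, n = 4 each, adjusted p 0.0957 by limma, 0.00739 without cKO replicate 3, 0.0188 by DESeq2). Gsdme, the gasdermin cut by caspase-3, had 437 ± 94.6 and 326 ± 51.8 (adjusted p 0.182). Gsdma2 and Pjvk did not pass 1.97 in any library, and Gsdma3 was not in the table. Of the 4 genes of this list that were tested, copies included, none was called by limma, while DESeq2 called Gsdma higher and Gsdmcl2 lower, and their median log2 fold change was -1.25.

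Of 6 reported proteases that cut gasdermins, 1 was called higher and none lower, with a median log2 fold change of -0.26. Casp8, which cuts mouse Gsdmd and human GSDMC, rose from 3315 ± 494 normalized counts in Ctrl to 5051 ± 707 in cKO (SD, n = 4 each), with no overlap between the groups. Its log2 fold change was 0.61 ± 0.13 (SE, adjusted p 0.0205 by limma), and the call was lost without Ctrl replicate 3 or Ctrl replicate 4, with an adjusted p of up to 0.0646. Casp1, the main activator of Gsdmd, had 4834 ± 604 and 4097 ± 784 (adjusted p 0.287), and Casp4, which encodes mouse caspase-11, had 1397 ± 241 and 1224 ± 240.1 (adjusted p 0.471). Elane was not in the table, and Ctsg did not pass 1.83 in any library.

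Of the 12 tested inflammasome genes, which act upstream of the inflammatory caspases, 2 were called higher and 4 lower, with a median log2 fold change of 0.10. Nlrp6, a sensor expressed in the gut epithelium, had 8461, 10679.8, 10933 and 8418 normalized counts in Ctrl and 3293, 3727, 5689.6 and 2992 in cKO. Each cKO library lay below each Ctrl library, and the fall was -1.33 ± 0.20 on the log2 scale (SE, adjusted p 0.00684 by limma). Naip5, a receptor for bacterial flagellin, fell from 3059 ± 183 to 2138 ± 226 (log2 fold change -0.52 ± 0.09, adjusted p 0.0107). Nlrp1b, a sensor of bacterial proteases, fell from 166 ± 37.4 to 26.1 ± 28.6 (-3.17 ± 0.64, adjusted p 0.0171). The calls of these 3 genes were held whichever library was left out.

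The adaptor Pycard, which links sensors to caspase-1, fell from 3547 ± 429.7 to 2128 ± 675 (log2 fold change -0.78 ± 0.19, adjusted p 0.0340 by limma), a call held only without cKO replicate 3 when 1 library was left out. Mefv, which encodes pyrin, rose from 3.42 ± 1.48 to 22.5 ± 14.3 (2.23 ± 0.53, adjusted p 0.0289), a call lost without Ctrl replicates 1, 2 or 3 or cKO replicate 1, at up to 0.0834. Nlrp3, a sensor best known from myeloid cells, rose from 5.75 ± 7.63 to 52.1 ± 31.1 (3.41 ± 0.90, adjusted p 0.0417), a call lost without any of Ctrl replicates 1, 2 and 3 and cKO replicates 1, 3 and 4, at up to 0.107, and with 3 other settings, edgeR among them, at up to 0.0642. Pyrin and Nlrp3 were thus seen at low counts, beside the neutrophil markers of similar level given above, whose part in them was not tested. The naming of Pycard and Nlrp3 as the fifth and sixth called genes of this list followed their values.

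Among the 12 genes tied to Gsdmd transcription and pore assembly, 1 was called higher and 1 lower, with a median log2 fold change of 0.03. Rraga, a small GTPase of the Ragulator and Rag complex that promotes Gsdmd pore assembly in mouse macrophages, rose from 1378 ± 50.3 to 1913 ± 196 normalized counts (SD, n = 4 each, log2 fold change 0.47 ± 0.09, adjusted p 0.0127 by limma). Zdhhc7, a palmitoyltransferase that acts on Gsdmd, fell from 2795 ± 141 to 2196 ± 178 (-0.35 ± 0.08, adjusted p 0.0280). The call of Rraga was held whichever library was left out, while that of Zdhhc7 was held only without cKO replicate 2 or cKO replicate 3, and was lost with library totals at 0.0505. Irf2, a transcription factor known to drive Gsdmd, had 1864 ± 356 and 1274 ± 220.5, with an adjusted p of 0.0571, or 0.0231 without cKO replicate 2.

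None of the 16 ESCRT genes, whose products trim gasdermin pores from the membrane, was called, and their median log2 fold change was -0.00280. Ninj1, which ruptures the plasma membrane after pore formation, had 847 ± 107 normalized counts in Ctrl and 765 ± 101 in cKO (SD, n = 4 each, adjusted p 0.490 by limma). Its relative Ninj2 had 26.7 ± 11.97 and 6.17 ± 4.61, with no overlap and an adjusted p of 0.0504, or 0.0383 without cKO replicate 3. Ninj2 also passed with 5 added to the counts (0.0374), no filter on low values (0.0411), protein-coding genes alone (0.0490), DESeq2 (0.0134) and limma-voom (0.0468), and edgeR gave 0.0510. It missed with 0.5 added (0.0563) and library totals (0.0519), and reached 0.135 by limma when 1 library was left out. Of 7 tested genes for the IL-1 family cargo of gasdermin pores and its inhibitors, 1 was called higher, with a median log2 fold change of 0.996. Il33, an alarmin, had 32.9, 25.2, 18.0 and 49.8 in Ctrl and 314, 132, 82.3 and 266 in cKO. All cKO libraries were above all Ctrl libraries (2.52 ± 0.46, adjusted p 0.0126), and the call was held whichever library was left out. Il1b had 32.4 ± 23.2 and 310.2 ± 223 (adjusted p 0.0803, or 0.00530 without cKO replicate 2, where it was lowest of cKO at 28.3). Il18, the epithelial cargo, had 1557 ± 486 and 1384 ± 647 (adjusted p 0.699).

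**Figure D4:**
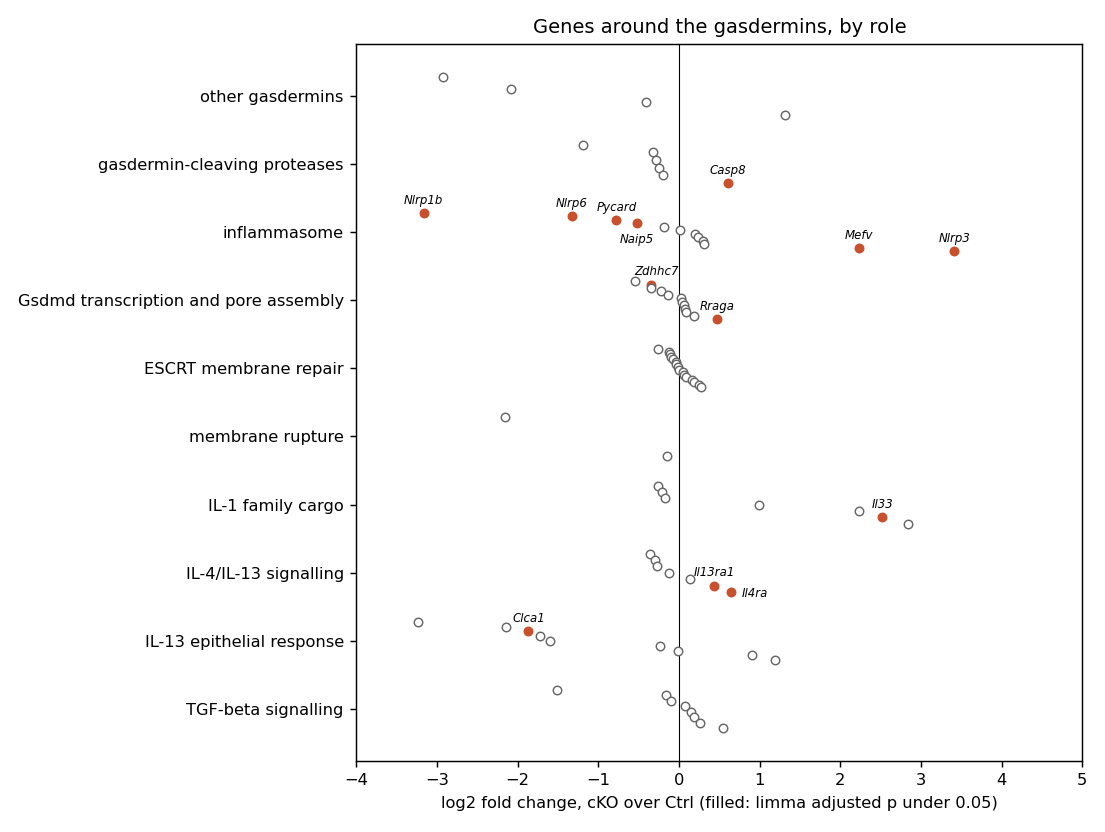
Each point is the log2 fold change (cKO over Ctrl) of a tested gene in 10 lists of genes around the gasdermins, ordered by role, and filled red points with names passed an adjusted p under 0.05 by limma. The IL-13 epithelial response list lies to the left of 0 for 7 of 9 genes with 1 called, and the ESCRT list lies close to 0.

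The genes of the type 2 cytokine pathway, known to act on Gsdmc, were followed from ligands to targets. Il13 did not pass 1.22 normalized counts in any library and Il4 lay between 6.83 and 14.7. The epithelial signals Il25 and Tslp did not pass 6.63. Of 7 tested genes of this signalling list, 2 were called higher and none lower, and their median log2 fold change was -0.13. Both were receptor chains for IL-4 and IL-13. Il4ra rose from 1536 ± 162 to 2455 ± 665 (SD, n = 4 each, log2 fold change 0.64 ± 0.18, adjusted p 0.0459 by limma), and Il13ra1 rose from 3060.2 ± 416 to 4134 ± 365 (0.44 ± 0.11, adjusted p 0.0339). Neither call was held without Ctrl replicates 1, 3 or 4 or cKO replicate 1, Il4ra was also lost without Ctrl replicate 2 or cKO replicate 3 and Il13ra1 without cKO replicate 4, at adjusted p values of up to 0.117 and 0.0968. Stat6 had 2806 ± 237 and 2289.6 ± 349 (adjusted p 0.132).

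Of 9 epithelial genes known to respond to IL-13, 1 was called lower and none higher, and their median log2 fold change was -1.61 beside -0.00596 over all tested genes. Clca1, a secreted goblet cell protein, had 374144, 290094, 476214 and 574297 normalized counts in Ctrl and 62274, 60341, 157788 and 281707 in cKO. The groups did not overlap, and the log2 fold change was -1.87 ± 0.50 (SE, adjusted p 0.0464 by limma). The call was lost in 7 of the 8 fits that left out a library, all but that without cKO replicate 4, with an adjusted p of up to 0.118, and it was lost with 4 other settings, edgeR among them, at adjusted p values of up to 0.140. Retnlb, which encodes the antimicrobial RELM-beta, had 39488 ± 7012 and 14949.7 ± 9984 with no overlap (adjusted p 0.0846). Itln1, an intestinal lectin, had 2395 ± 597 and 853 ± 695 with no overlap (adjusted p 0.158).

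Pla2g4c, which encodes a cytosolic phospholipase A2, had the lowest fold change of this list, at -3.24 with an adjusted p of 0.168. Its normalized counts were 13584, 6085, 28073 and 18802 in Ctrl and 2093, 78.0, 4686 and 7106 in cKO. Its groups overlapped, with cKO replicate 4 above Ctrl replicate 2. Fut2, an epithelial fucosyltransferase, had 8946 ± 1888 and 8763 ± 859.95 (SD, n = 4 each, adjusted p 0.966 by limma). Sprr2a1 and Sprr2a2, which encode near-identical small proline-rich proteins whose reads may be shared, had fold changes above 0 with adjusted p values of 0.567 and 0.540. Their relative Sprr2a3 stood at -0.23 (adjusted p 0.668), and Ang4 stood at -1.61 with overlapping groups (adjusted p 0.246). Of 8 tested genes of TGF-beta signalling none was called, and their median log2 fold change was 0.11.

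Across libraries, Pla2g4c was also the gene most like the Gsdmc sum. Likeness was measured as Pearson's r over the 8 libraries after the group means were subtracted from the log2 values, so that the difference between the groups does not enter, and 13068 protein-coding genes were ranked. Pla2g4c had r = 0.997, followed by Hnrnpl (0.989), an RNA-binding splicing factor, Itln1 (0.986), Nfu1 (0.981), an iron-sulfur cluster protein of mitochondria, and Fam241a (0.976). The 9 genes of the IL-13 response list had a median r of 0.948, with 5 of them among the first 100 genes, beside a median of 0.0135 over all ranked genes, of which 1.46% were above 0.9. Sprr2a3 had r = 0.965, Ang4 0.950 and Retnlb 0.948, while Clca1 had 0.779, Sprr2a1 0.279, Sprr2a2 0.196 and Fut2 0.0025.

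Without cKO replicate 2, in which the Gsdmc sum was lowest, r was lower for 5 of the 9 genes and higher for 4. Over the 7 other libraries the median r of the list was 0.849, with 1 gene among the first 100, beside a median of 0.00666 over all ranked genes, of which 2.05% were above 0.9. That gene was Pla2g4c, with r = 0.986 at rank 9. Itln1 had 0.921 at rank 163 and Retnlb 0.780 at rank 1162, while Clca1 had 0.849 at rank 592. The first 5 genes were then Acot13, Frg2f1, Camk1d, Slc25a10 and Spcs3, at r between 0.993 and 0.994. These points share library and depth, and an r over so few of them is a description.

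**Figure D5:**
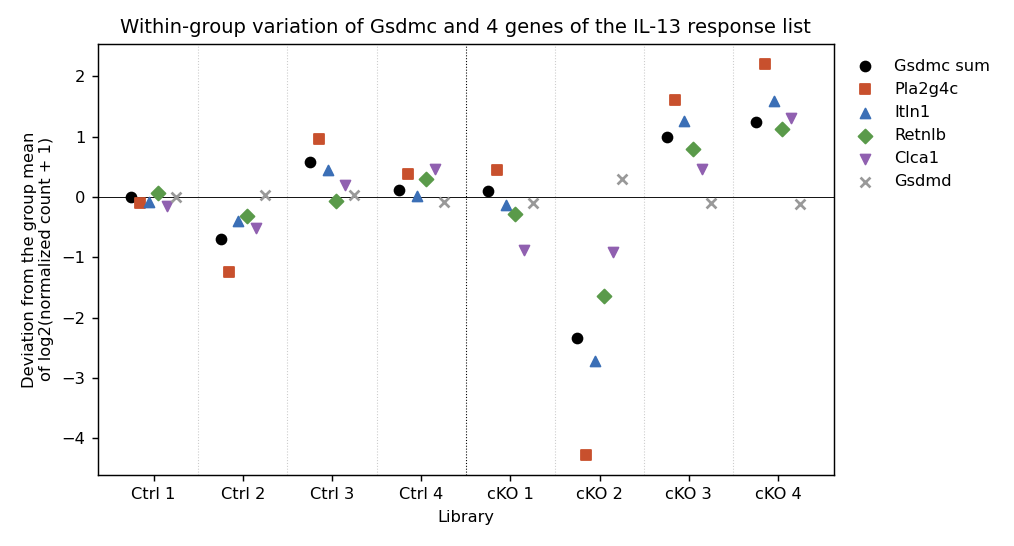
For each library, points give how far the Gsdmc sum, 4 genes of the IL-13 response list and Gsdmd lie from their own group mean on the scale of log2(normalized count + 1). In cKO replicate 2 the Gsdmc sum, Pla2g4c, Itln1, Retnlb and Clca1 all lie below their group mean and Gsdmd lies above it.

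Gsdmd ran against the Gsdmc sum within the groups, at r = -0.898 over 8 libraries and -0.233 over 7 without cKO replicate 2. The genes most like Gsdmd were Cdkl3, a kinase (r = 0.987), Nfkbia, the inhibitor of NF-kappa-B (0.979), Dcaf13 (0.979), Slc6a6, the taurine transporter (0.974), and Dnajc16 (0.973). Without cKO replicate 2 their r ranged from 0.597 for Dnajc16 to 0.930 for Dcaf13. None of these 5 genes was called between the groups, at adjusted p values from 0.102 to 0.451 by limma.

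No tested protein-coding gene that flanks the Gsdmc cluster was called. Within 500 kb of it 2 were tested, Fam49b at a log2 fold change of 0.25 (adjusted p 0.0991 by limma) and Asap1 at 0.43 (adjusted p 0.218). Within 500 kb of Gsdmd 31 protein-coding genes were tested, with 1 called higher and 5 called lower and a median of -0.15. Over all tested genes 5.65% were called higher and 6.07% lower, and nothing is read from the counts near either locus. Top1mt, the mitochondrial topoisomerase, rose from 239 ± 16.3 to 382 ± 73.7 normalized counts (adjusted p 0.0246). Maf1, a repressor of RNA polymerase III, fell from 1908 ± 203.5 to 1313 ± 162 (adjusted p 0.0187), Eppk1, a cytolinker, fell from 3170 ± 372 to 2138 ± 281 (adjusted p 0.0202) and Pycrl, an enzyme of proline synthesis, fell from 1603 ± 56.0 to 1222 ± 115 (adjusted p 0.0223). Gm35339 and BC024139 fell by 1.05 and 1.01 on the log2 scale (adjusted p 0.0177 and 0.0385). Each of these 6 calls was lost in 1 or more of the 8 fits that left out a library, at adjusted p values of up to 0.101. The libraries whose absence ended a call were Ctrl 2 for Gm35339, then Ctrl 3, Ctrl 4, cKO 1 and cKO 4 for Maf1, and Ctrl 1, Ctrl 2, Ctrl 3 and cKO 4 for Eppk1. They were Ctrl 1, Ctrl 3, Ctrl 4 and cKO 4 for Pycrl, every Ctrl library, cKO 1 and cKO 4 for Top1mt, and Ctrl 1, Ctrl 3, Ctrl 4, cKO 1, cKO 3 and cKO 4 for BC024139. Eppk1 and BC024139 overlap on the same strand and may share reads.

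Other epithelial markers moved in part. Of 15 enterocyte genes 11 were tested, with Krt20 called higher and Fabp2 and Slc5a1 lower. Of 10 reported colon genes Scnn1g was called higher and Aqp4 lower, of 7 goblet cell genes 1 was called lower, namely Clca1, and of 6 tuft cell genes none was called. The enterocyte sum ran from 35840 to 44110 in Ctrl and from 35880 to 48000 in cKO, the goblet sum from 602800 to 1089000 and from 316800 to 780000, and the tuft sum from 1037 to 1573 and from 865 to 1957. All 3 sums overlapped between the groups. The largest parts of the goblet sum were Clca1 (means of 428687 in Ctrl and 140528 in cKO) and Fcgbp (294178 and 210398). The median log2 fold change of the 7 goblet genes was -0.04. Of the 3 ileum genes tested 1, Fabp6, was called lower, and of the 3 Paneth cell genes 1, Mmp7, was called higher. Among 5 stem cell genes Olfm4 was called higher and none lower, and their median log2 fold change was -0.24. Lgr5 stood at -1.13 (adjusted p 0.297), Smoc2 at -1.05 (0.126), Axin2 at -0.24 (0.321) and Ascl2 at -0.10 (0.817). The stem cell sum ran from 2609 to 3361 in Ctrl and from 1270 to 2626 in cKO, and without cKO replicate 2 1 of the 5 genes was called lower. Of 10 macrophage and dendritic cell genes 1, Mrc1, was called higher, and no gene was called of the 7 mast cell and eosinophil, 9 T cell and ILC, 4 B and plasma cell, 8 stroma and vessel and 3 proximal small intestine genes tested. The naming of the called enterocyte and colon genes followed their values. When 1 library was left out, the count of enterocyte genes called lower ran from 1 to 5, with 5 without cKO replicate 2, and that of enterocyte genes called higher from 0 to 1. The call of Krt20 was lost without Ctrl 1, Ctrl 3, Ctrl 4, cKO 1 or cKO 3, at up to 0.0853. That of Slc5a1 was lost without any Ctrl library, cKO 1 or cKO 4, at up to 0.115, and with library totals, edgeR or limma-voom. That of Scnn1g was lost without the same 6 libraries, at up to 0.0780, and with no filter on low values or limma-voom, and that of Aqp4 without Ctrl 3, at 0.0520. The calls of Fabp2, Fabp6 and Mmp7 were held in all 8 fits, that of Olfm4 only without cKO replicate 2 and that of Mrc1 only without Ctrl replicate 2 or cKO replicate 2. Without a filter on low values neither Olfm4 nor Mrc1 was called. The part of these cell types in the Gsdmc difference was not tested.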

How the data were processed

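The 8 libraries were made from total RNA of crypt cells, and their titles gave the groups (4 Ctrl, 4 cKO). The submitters' processing notes list HISAT2 2.0.5, featureCounts 1.5.0-p3 and CASAVA, with no role or order. No source used here gives the build, annotation release, read length or use of strand. The deposited table holds a normalized signal for each gene in each library. The authors made it from gene counts, scaled with 1 factor per library, which the steps between low values show. When each value was divided by the step of its library, 100% came out as whole reads within 0.0001 reads, and these recovered reads served the count-based alternatives only. A log2 fold change and a p-value from an unnamed test are also part of the authors' deposited table, whose log2 fold changes were -1.33 for Gsdmc, -2.19 for Gsdmc2, -2.14 for Gsdmc3, -2.58 for Gsdmc4 and 0.43 for Gsdmd.

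The test between the groups was limma 3.58.1 (two-sided, eBayes, trend and robust options on) with the group alone in the model, on log2 values after adding 1. It covered the 16536 genes whose mean reached 10, and p-values were adjusted over them by Benjamini-Hochberg, with 0.05 as the threshold. Adding 1 shrinks the fold changes of low genes. The SE of a member or of the Gsdmc sum comes from the pooled SD within the groups, and that of another gene is the moderated one of limma. A further 20 settings were tried, 8 of them leaving out 1 library, the others changing the pseudocount, filter, scaling, test (edgeR 4.0.16, DESeq2 1.42.0, limma-voom), genes tested or a replicate block. The fitting code was tested on simulated data. Libraries of the same group all differed by more than sampling noise, with a chi-square per degree of freedom of 29.3 or more.

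The members and gene lists were chosen with earlier results of these data known. A gene of the protease list and a gene of the colon list are not reported here, and the counts and medians of those lists leave them out. The genes named were the 5 members and their Gsdmc sum, up to 4 called genes per pathway list by adjusted p with list genes at 0 or not in the table, called protein-coding genes within 500 kb of a member, the 5 protein-coding genes most like the Gsdmc sum and Gsdmd within the groups, and Tardbp. The other genes named, among them cell type markers and uncalled pathway genes, were chosen after their values were seen. Identifiers were matched to GENCODE M21 on GRCm38, which held 98.9% of them, 99.6% of those with identical coordinates. Coding sequences were aligned with MAFFT 7.526, and transcript windows were searched on both strands. Depth limits the precision of low genes such as Gsdmc, and counting error enters the SE only as part of the spread between libraries.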

Additional observations from a re-analysis of the deposited data

Results flagged for a closer look

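Within each group of 4 libraries, the gap between the highest or lowest library and its nearest neighbour was compared with the whole range of the group by Dixon's test at its 95% critical value. Of the 18 groups of member, copy and ratio values tested, 2 passed it, both through cKO replicate 2, and chance alone passes about 1 in 20 groups.

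Gsdmd stood at 6958 normalized counts in cKO replicate 2, far above the other cKO libraries at 5197, 5249.9 and 5279, with a gap of 0.953 of the range. All 4 cKO libraries were above all 4 Ctrl libraries with or without it.

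The pseudogene copy Gsdmcl-ps stood at 24.4 normalized counts in cKO replicate 2, far below the other cKO libraries at 286, 304 and 319, with a gap of 0.886 of the range. The Gsdmc sum was lowest in the same library, at 4276.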

How the results depend on the processing

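The signs of all 5 member differences and of the Gsdmc sum were kept in every setting that gave a value. The Gsdmc sum ranged from -2.81 to -2.38 on the log2 scale over 12 other settings and from -3.23 to -2.04 when 1 library was left out, and Gsdmd from 0.42 to 0.50 and from 0.32 to 0.46. Gsdmc gave no value with a mean of at least 50, with library totals, or without Ctrl replicate 3 or cKO replicate 3, since it then missed the filter. The count of genes called higher was 1509 with DESeq2, against 935, and the counts ran from 379 to 1347 higher and from 390 to 1385 lower when 1 library was left out. The replicate number as a block gave 821 higher and 924 lower. The numbers were not taken as pairing the libraries, because 1 of the 4 correlations between deviations of same-numbered libraries (0.318, -0.106, 0.123 and 0.323) was below 0.1. The other 3 were the highest of their cKO library with any Ctrl library, while cKO replicate 2 correlated best with Ctrl replicate 4 (0.0891), a hint from the data and not from the design. With the block Krt18 (adjusted p 0.0831), Il4ra (0.0521), Slc5a1 (0.0654) and Olfm4 (0.0527) lost their call, which is not read as weaker, and Gsdmcl-ps (0.0472), Gsdmcl2 (0.0150) and Ninj2 (0.0341) gained one, among others. Among named genes and list counts, 150 comparisons lost a call, 22 gained one and 179 list or count values moved by more than 1.5 times, against 1573 that did neither. The causes were not tested.

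Depth limits Gsdmc, with 61 reads in Ctrl and 24 in cKO, and the split of reads among near-identical Gsdmc copies limits each copy more than their sum. The whole-gene count of Tardbp cannot show the deletion.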
